A study of Mus musculus with 12 samples.

Results

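The Fc gamma receptors are cell surface proteins by which macrophages bind IgG, and 6 genes of this system were examined in bone marrow-derived macrophages (BMDMs) exposed to activin A. They were taken by gene symbol from the 18376 genes of the deposited table, and earlier results of these data were known when they were chosen. *Fcgr1*, *Fcgr3* and *Fcgr4* encode the ligand-binding chains of the activating receptors, *Fcgr2b* encodes the inhibitory receptor, *Fcer1g* encodes the common gamma chain that carries the signal of the activating receptors, and *Fcgrt* encodes the heavy chain of the neonatal Fc receptor. All 6 genes were listed, and all 6 reached the minimum mean of 5 for testing, as did 14318 genes in all.

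BMDMs are macrophages grown in vitro from bone marrow progenitor cells, here from adult wild type C57BL6/J mice, and every culture received 50 ng/ml M-CSF, the growth factor that drives macrophage development. CTRL cultures had no further addition. Act cultures were given recombinant activin A at 50 ng/ml, FST cultures FST288 at 250 ng/ml, and Act + FST cultures the 2 agents at these doses, in each case over 6 days. Follistatin, of which FST288 is 1 form, traps activin A outside the cell so that it cannot reach activin receptors. Each of the 4 groups had 3 libraries of stranded mRNA sequencing, so that Act versus CTRL addresses the response to activin A and Act versus Act + FST its dependence on free activin A. The labels do not say whether the libraries of a group came from separate mice or cultures, so p-values measure the spread between these libraries, and a culture grown from marrow under M-CSF is a model that lacks the IgG and immune complexes of a tissue.

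When IgG-coated particles gather the activating receptors, Src family kinases phosphorylate the activation motif (ITAM) in the common gamma chain, the kinase Syk binds to it, and phagocytosis, the oxidative burst and cytokine release follow. *Fcgr2b* carries an inhibitory motif instead, which recruits the phosphatase SHIP1 and raises the amount of immune complex needed for a response, so that the balance between activating and inhibitory receptors is a known setting of macrophage reactivity. The neonatal Fc receptor pairs with beta-2 microglobulin, does not signal in this way, and returns endocytosed IgG to the surface.

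Among the 6 genes, 4 lay on chromosome 1 of GRCm38 within 276 kb. In the GENCODE annotation these were *Fcgr2b* (chr1:170958617-170976547, minus strand), *Fcgr4* (chr1:171018920-171029761, plus strand), *Fcgr3* (chr1:171051174-171064935, minus strand) and *Fcer1g* (chr1:171229572-171234365, minus strand). *Fcgr1* lay at chr3:96282909-96293969 on the minus strand, and *Fcgrt* at chr7:45092990-45103851 on the minus strand.

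The promoters of the 3 activating receptor genes are shown because these genes share a signalling chain and a cell type and 1 of them, *Fcgr4*, was called in Act versus CTRL. Each sequence is a RefSeq window of GRCm38.p6 on the strand of the gene, with 250 bases before and 50 bases after the annotated start, and promoter windows were found for all 6 genes. Capitals mark the core motif of PU.1, the lineage factor of macrophages, spelled GAGGAA and seen here on the opposite strand, and in *Fcgr1* also the gamma-interferon-activated site, spelled TTCNNNGAA. The windows are chr1:171018676-171018975 for *Fcgr4*, chr3:96293920-96294219 for *Fcgr1*, and chr1:171059345-171059644 for *Fcgr3*, the first of 2 windows that overlap in all but 9 bases.
Fcgr4: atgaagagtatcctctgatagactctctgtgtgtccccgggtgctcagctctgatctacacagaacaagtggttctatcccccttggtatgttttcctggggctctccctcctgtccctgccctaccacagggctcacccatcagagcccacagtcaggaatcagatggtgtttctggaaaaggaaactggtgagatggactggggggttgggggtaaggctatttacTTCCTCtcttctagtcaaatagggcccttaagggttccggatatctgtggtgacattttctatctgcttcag
Fcgr1: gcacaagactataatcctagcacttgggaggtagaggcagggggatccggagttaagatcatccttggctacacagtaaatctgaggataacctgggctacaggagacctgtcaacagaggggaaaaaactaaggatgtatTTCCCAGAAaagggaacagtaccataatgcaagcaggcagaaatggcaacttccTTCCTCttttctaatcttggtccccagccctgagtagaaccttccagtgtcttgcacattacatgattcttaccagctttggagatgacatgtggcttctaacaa
Fcgr3: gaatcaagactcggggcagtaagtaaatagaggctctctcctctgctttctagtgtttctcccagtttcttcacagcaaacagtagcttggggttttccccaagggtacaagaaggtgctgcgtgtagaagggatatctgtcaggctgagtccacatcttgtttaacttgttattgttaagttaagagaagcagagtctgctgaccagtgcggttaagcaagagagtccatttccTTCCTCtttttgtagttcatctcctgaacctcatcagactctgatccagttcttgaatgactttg

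The PU.1 core began 22 bases before the start in *Fcgr4*, 55 bases before it in *Fcgr1* and 15 bases before it in *Fcgr3*. It was in none of the windows of *Fcgr2b*, *Fcer1g* and *Fcgrt*, searched on both strands, and was in 28.3% of all 32851 RefSeq windows of this length. The gamma-interferon-activated site of *Fcgr1* began 109 bases before the start, none of the other 5 genes had a match, and 8.30% of all windows had one. The SMAD palindrome GTCTAGAC, a motif bound by the transcription factors that activin receptors activate, was in none of the windows of the 6 genes and in 0.213% of all windows. The shorter SMAD box CAGAC, which the palindrome does not contain, was in the windows of *Fcer1g*, *Fcgr2b* and *Fcgr3* and in 49.6% of all windows. A match or its absence describes only the letters of these windows.

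All 6 genes were strongly expressed in every library. The values are normalized counts, that is, gene counts that the authors scaled by 1 factor per library and rounded. The libraries summed to between 5643708 and 5955400 normalized counts, which does not show the original depth because the values were already scaled, and the 6 genes together took 0.0992% to 0.119% of each total. Per kilobase of annotated exon, the mean level over the 12 libraries was 551 for *Fcgr3*, 544 for *Fcer1g*, 461 for *Fcgrt*, 441 for *Fcgr4*, 391 for *Fcgr1* and 380 for *Fcgr2b*. The ranges over libraries of every neighbouring pair in this order overlapped. With the length of the longest coding transcript instead, *Fcgr2b* moved up from last place and stood behind *Fcgr3* and *Fcer1g*, at 620 per kilobase, since its annotated exons include sequence outside that transcript. Each of the 6 genes exceeded at least 98.9% of the 18359 genes with an annotated length in the value per exonic base.

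The macrophage identity of the cultures was checked by markers. *Csf1r*, the M-CSF receptor, had between 3134 and 3578 normalized counts in the 12 libraries, and the summed level of all 8 macrophage markers was 11334 to 12247 in CTRL and 11578 to 12151 in Act. Of these 8 only *Cd14* was called between Act and CTRL, with a log2 fold change of 0.23 (limma adjusted p = 0.0259). Of all genes, 20.2% were called in that comparison, so 1 of 8 does not set these markers apart. NK cells express *Fcgr3*, and their markers were low, with *Klrb1c* at 0 to 3 and *Klrd1* at 1 to 17 normalized counts. These were the only 2 of the 6 NK markers listed in the table used here. Neutrophils also carry *Fcgr4* and *Fcgr3*, and the 7 neutrophil markers ran from *Ly6g*, their defining surface marker, at 2 to 12 normalized counts, to the granule gene *Ltf* at 344 to 592. Between these lay *Camp* (19 to 60), *Elane* (7 to 66), *Mpo* (15 to 162), *S100a8* (106 to 165) and *S100a9* (178 to 265).

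In Act versus CTRL *Fcgr4* was lower, while the other 5 genes had log2 fold changes between −0.18 and 0.08 that did not pass the test. *Fcgr4*, the activating receptor of intermediate affinity for IgG, had 614, 576 and 559 normalized counts in the CTRL libraries, and 471, 466 and 430 in those of Act. It had 556, 587 and 556 in Act + FST and 604, 646 and 575 in FST. The 3 Act libraries were the lowest of the 12 and did not overlap with any other group. *Fcgr4* fell by 21.8% in Act versus CTRL, a log2 fold change of −0.35 ± 0.06 (SE, 3 against 3 libraries, 95% interval −0.48 to −0.23, limma adjusted p = 0.000677), and within each of the 3 replicate numbers the Act library was below the CTRL library. All fold changes here are on the scale of log2(normalized count + 1).

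*Fcgr4* was the only 1 of the 6 genes to pass an adjusted p of 0.05 in Act versus CTRL, where 20.2% of all 14318 genes passed in either direction and 9.97% were lower. None of the 6 changed by 2-fold at that threshold, as 5.66% of all genes did. In the 3 against 3 exact permutation test the *Fcgr4* difference had p = 0.1, two-sided, the smallest value this design allows.

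*Fcgr1*, the high-affinity receptor, had 1071, 987 and 908 normalized counts in the CTRL libraries, and 1051, 1032 and 1047 in those of Act. Its Act values lay within the range of CTRL, and the log2 fold change was 0.08 ± 0.07 (95% interval −0.06 to 0.22, limma adjusted p = 0.458). Act + FST had 1023, 1076 and 958 and FST had 1059, 1023 and 922, so that all 4 groups overlapped. *Fcgr3*, a low-affinity activating receptor, had 1020, 904 and 976 in CTRL against 959, 901 and 920 in Act. These groups overlapped as well, with a log2 fold change of −0.06 ± 0.06 (95% interval −0.20 to 0.08, limma adjusted p = 0.579). *Fcgr3* had 892, 1039 and 962 in Act + FST and 934, 1029 and 939 in FST.

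*Fcgr2b*, the inhibitory receptor, had 2173, 2225 and 2260 normalized counts in the CTRL libraries, and 2079, 2114 and 2036 in those of Act. The 3 Act libraries were below the 3 CTRL libraries without overlap, but the log2 fold change of −0.10 ± 0.07 did not pass the test (95% interval −0.24 to 0.05, limma adjusted p = 0.368). In Act + FST it had 2143, 2526 and 2255 and in FST 2034, 2397 and 2146, a wider spread than in CTRL or Act. *Fcer1g*, the common gamma chain, had 482, 477 and 472 in CTRL and 462, 461 and 460 in Act, again without overlap. Its log2 fold change was −0.05 ± 0.06 (95% interval −0.17 to 0.07, limma adjusted p = 0.620), and the values were 449, 516 and 496 in Act + FST and 449, 511 and 473 in FST.

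*Fcgrt*, the neonatal Fc receptor, had 1020, 1005 and 1005 normalized counts in the CTRL libraries, and 887, 925 and 867 in those of Act. All 3 Act libraries were lower than all 3 CTRL libraries, with a log2 fold change of −0.18 ± 0.06 (95% interval −0.31 to −0.04). The limma adjusted p was 0.0618, and it was 0.00508 with the replicate number as a block, so the call depends on the fit (1 of the 6 genes called without the block and 2 with it, against 31.5% of all genes with it). *Fcgrt* had 938, 1054 and 915 in Act + FST and 973, 1094 and 942 in FST, and these groups overlapped with CTRL. In all, 4 of the 6 genes (*Fcgr4*, *Fcgr2b*, *Fcer1g* and *Fcgrt*) had Act values below all CTRL values, as 17.6% of all genes did, and each had p = 0.1 in the two-sided exact permutation test.

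**Figure D1:**
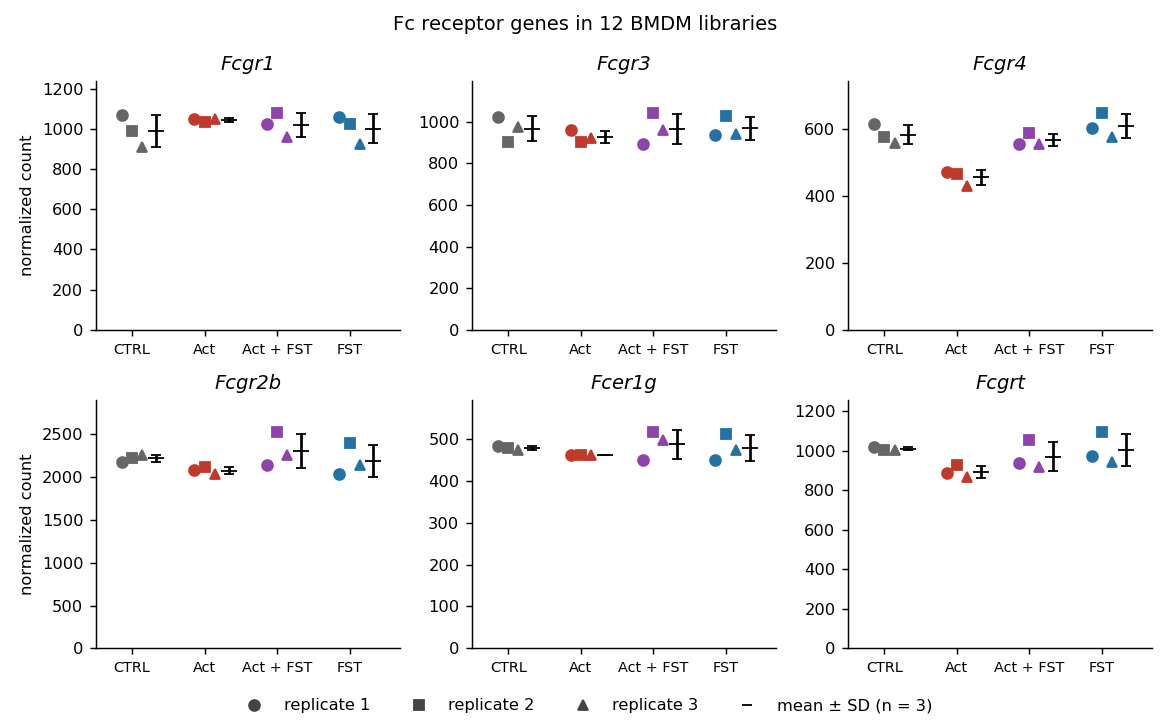
Normalized counts of the 6 genes (y axes, each from 0) in the 12 libraries, by group on the x axis, with points for replicates 1 to 3 and a bar for the mean ± SD of 3 libraries. The *Fcgr4* values of Act, 430 to 471, lie below the values of all other groups, 556 to 646, while *Fcgr1* and *Fcgr3* values overlap between groups.

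With FST added, the *Fcgr4* level was again close to CTRL. In Act versus Act + FST *Fcgr4* fell by 19.5%, or −0.31 ± 0.06 on the log2 scale (95% interval −0.43 to −0.19, limma adjusted p = 0.00156). It was the only 1 of the 6 genes to pass in this comparison, in which 21.3% of all genes passed. *Fcgr2b* was lower in Act without overlap, as were *Fcgr4* and 16.7% of all genes, at −0.15 ± 0.07 (95% interval −0.29 to −0.00445), with a limma adjusted p of 0.140 that became 0.0211 with the replicate block. For *Fcgrt* the log2 fold change was −0.12 ± 0.06, with a limma adjusted p of 0.222 that became 0.0492 with the replicate block. The block thus raised the count of genes called from 1 to 3 of 6, against 32.6% of all genes. *Fcgr1* (0.04), *Fcgr3* (−0.06) and *Fcer1g* (−0.08) did not pass with or without the block. The Act libraries are shared by both comparisons, so these are not independent measurements of the Act values.

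In Act + FST versus CTRL none of the 6 genes passed, and their log2 fold changes ran from −0.06 (*Fcgrt*) to 0.05 (*Fcgr2b*). Here limma called 0 of 14318 genes (0%), with 655 at an unadjusted p under 0.05 and 80 called with the replicate block. *Fcgr4* stood at −0.04, with a 95% interval of −0.16 to 0.08. FST versus CTRL also gave 0 calls with limma, with 299 genes at an unadjusted p under 0.05, and log2 fold changes from −0.02 (*Fcgr2b*) to 0.06 (*Fcgr4*, 95% interval −0.06 to 0.18). In Act + FST versus FST, the effect of activin A in the presence of its antagonist, the 6 genes ran from −0.10 (*Fcgr4*, 95% interval −0.22 to 0.02) to 0.07 (*Fcgr2b*). No gene was called there by limma, with 502 at an unadjusted p under 0.05 and 31 called with the block.

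The difference between the activin A effect without FST and that with FST was tested directly. For *Fcgr4* it was −0.25 ± 0.08 on the log2 scale (95% interval −0.42 to −0.08), with a limma adjusted p of 0.0776 and of 0.00985 with the replicate block. None of the 6 genes passed without the block, against 6.74% of all genes, and *Fcgr4* was the 1 gene that passed with it, against 16.3%. Quantile normalization also gave a call for *Fcgr4* here (limma adjusted p = 0.0397), but the share of all genes called under that setting is not given.

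**Figure D2:**
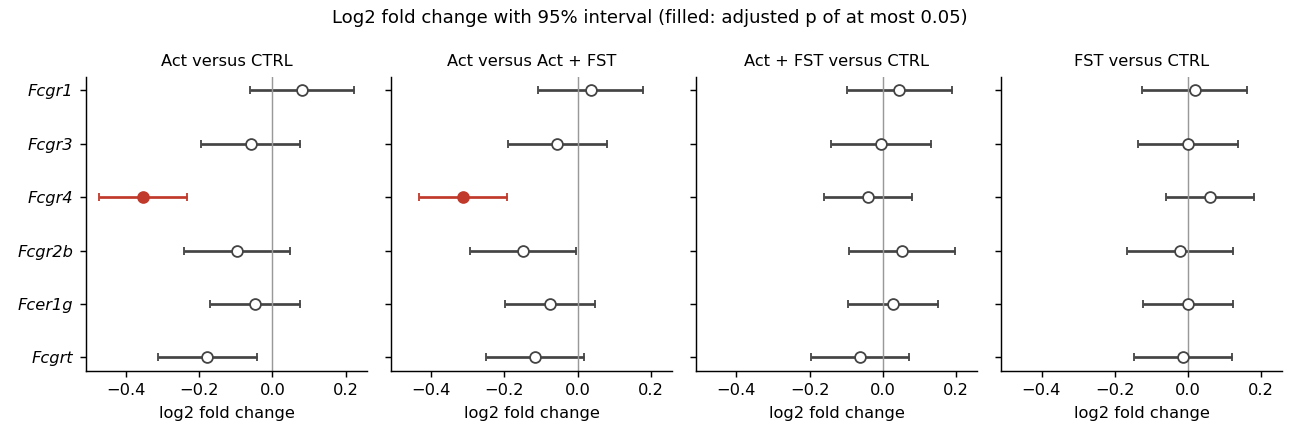
Log2 fold change (x axis) with its 95% interval for the 6 genes (y axis) in 4 comparisons, with filled points for an adjusted p of at most 0.05 in the fit without the replicate block. Only *Fcgr4* is filled, at −0.35 in Act versus CTRL and −0.31 in Act versus Act + FST.

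The libraries of replicate 2 in Act + FST and FST stood above their groups in all 6 genes, with median deviations of 0.10 and 0.09 on the log2 scale. The 190 other genes that were at least as dense per exonic base as the lowest of the 6 were also higher in these libraries, by medians of 0.08 in each. Whether the shift belongs to the Fc receptor genes or to dense genes at large was not tested. Without Act + FST replicate 2, *Fcgr4* was still called in Act versus Act + FST, and over all 6 fits that left out 1 library its log2 fold change there ran from −0.34 to −0.27 (limma adjusted p from 0.00361 to 0.00862). In Act versus CTRL the corresponding range was −0.38 to −0.31 (limma adjusted p from 0.00173 to 0.00413).

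The activating and inhibitory receptors were set against each other within each library, from values per exonic kilobase and without a test. The summed level of *Fcgr1*, *Fcgr3* and *Fcgr4* was 3.66 ± 0.27 times that of *Fcgr2b* in CTRL and 3.62 ± 0.09 times in Act (mean ± SD, n = 3). It was 3.52 ± 0.13 in Act + FST and 3.78 ± 0.24 in FST, and all 4 groups overlapped. The log2 ratio differed by −0.01 between Act and CTRL, where the SD within groups was 0.08. The ratio of *Fcgr4* alone to *Fcgr2b* was lower in Act, with log2 values of −0.04 to 0.06 against 0.19 to 0.38 in CTRL, 0.10 to 0.26 in Act + FST and 0.30 to 0.45 in FST. With the length of the longest coding transcript, the summed ratio was 2.50 ± 0.18 in CTRL and 2.48 ± 0.07 in Act. It was 2.40 ± 0.08 in Act + FST and 2.58 ± 0.16 in FST. The sizes of these ratios, and of the shares below, thus depend on the length used.

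The composition of the receptor RNA in Act differed from CTRL, while the summed ratio stayed within the range of CTRL. *Fcgr4* made up 26.2%, 26.3% and 25.5% of the summed level of the 4 receptor genes in CTRL and 22.2%, 22.4% and 21.0% in Act. *Fcgr1* made up 22.2%, 21.8% and 20.1% in CTRL and 24.0%, 24.1% and 24.8% in Act, above all libraries of the other groups. Because the shares of a library sum to a fixed total, a lower share of *Fcgr4* raises the others. The shares of *Fcgr2b* overlapped between all groups, and those of *Fcgr3* in Act overlapped with CTRL and Act + FST. *Fcer1g* had 0.39 ± 0.02 times the summed level of the 3 activating chains in CTRL and 0.41 ± 0.01 times in Act, with overlapping ranges.

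**Figure D3:**
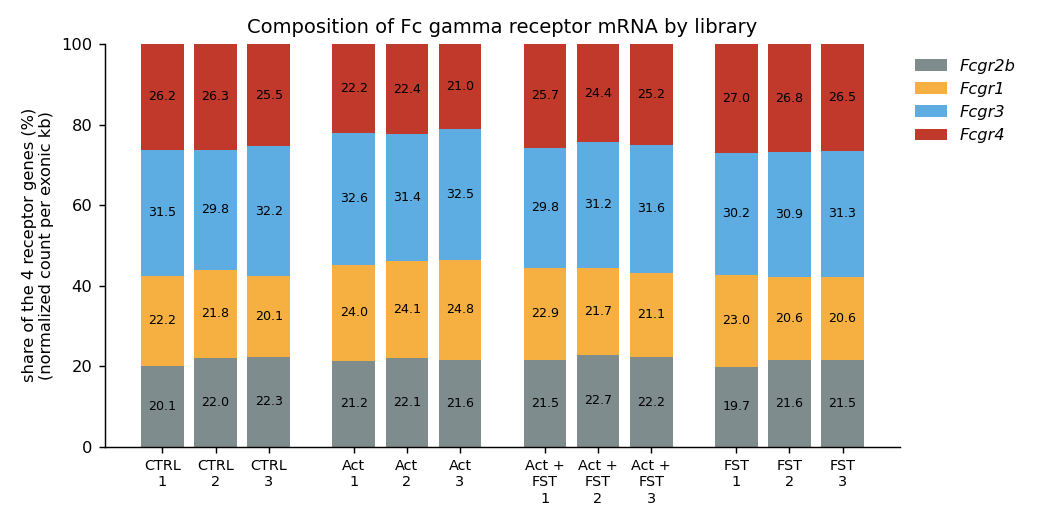
Share of each of the 4 Fc gamma receptor genes (y axis, percent of their summed normalized counts per exonic kilobase) in each library (x axis, by group and replicate). The *Fcgr4* share is 21.0% to 22.4% in Act and 24.4% to 27.0% in the other groups.

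The 6 genes were among the densest in reads per base. No gene had a mean above 0.883 normalized counts per exonic base, and the 6 genes had 0.380 or more, near that upper end. The 196 genes at this density, the 6 included, held 20.4% called genes in Act versus CTRL but none with a 2-fold change, against 20.2% and 5.75% among the less dense genes. Whether reads sharing a start position were removed is not given in the sources used here. Under an arithmetic correction for such reads, chosen after the data were seen, *Fcgr4* in Act versus CTRL had a log2 fold change of −0.47 (limma adjusted p = 0.000469) and that of *Fcgrt* −0.24 (limma adjusted p = 0.0565). The 190 other dense genes had a median log2 fold change of −0.04 in Act versus CTRL, with 9 higher and 30 lower.

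A limit of these values is sequence shared between genes. *Fcgr2b* and *Fcgr3* encode similar extracellular parts, and of all stretches of 75 bases in their annotated transcripts 5.43% and 5.42% also occurred in transcripts of another gene. Those of *Fcgr3* were all shared with *Fcgr2b*, but only 1.63% of the *Fcgr2b* stretches were shared with *Fcgr3*. Other *Fcgr2b* stretches occurred in transcripts of genes such as *Cplx2* (2.13%) and *Gm47409* (2.01%). Reads from shared stretches were left out of the counts where they aligned to several places. *Fcgr1*, *Fcgr4*, *Fcer1g* and *Fcgrt* shared no such stretch. *Fcgr2b* also overlaps the antisense gene *Gm38204* over 155 exonic bases, and the strand setting of the counting is not stated.

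**Figure D4:**
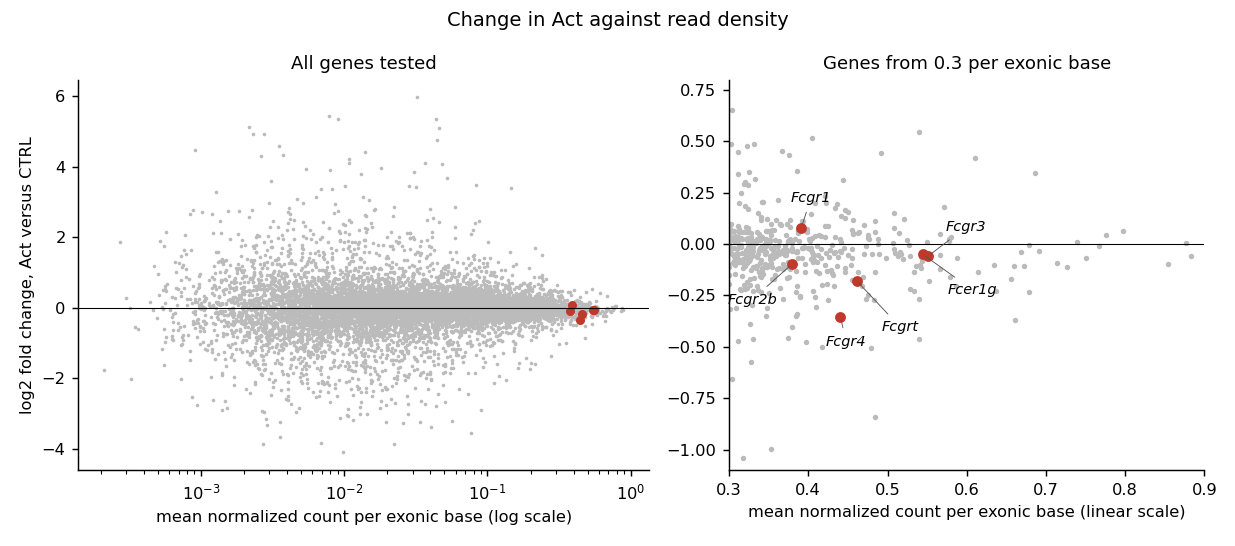
Log2 fold change of Act versus CTRL (y axes) against the mean normalized count per exonic base (x axes), for all genes tested on a log scale (left) and for the densest genes on a linear scale (right), with the 6 Fc receptor genes in red. The 6 genes sit at 0.380 or more per base, where no gene called had a change above 0.84 on the log2 scale.

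Beside the 6 genes, 8 lists of related genes were examined. They cover signalling downstream of the receptors, other Fc receptors, other adaptors and lectins, the MHC class I genes and the interferon gamma axis. They hold 121 genes, of which 110 were tested, and in Act versus CTRL 29 were higher and 8 lower, together 33.6% against 20.2% of all genes (41.8% against 31.5% with the replicate block). Of these, 3 changed by 2-fold, or 2.73% against 5.66%. In Act versus Act + FST 24 were higher and 11 lower, together 31.8% against 21.3% of all genes (44.5% against 32.6% with the replicate block). None passed in Act + FST versus CTRL, FST versus CTRL or Act + FST versus FST without the replicate block, and with it 3 were higher in Act + FST versus CTRL. Over all genes, Act versus CTRL had a median log2 fold change of 0.00359 and a median size of 0.14.

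Of the ITAM cascade, from the receptor-bound kinases to calcium and NF-kappaB signalling, 9 of 29 genes rose, 3 fell and 17 did not pass in Act versus CTRL, with a median log2 fold change of 0.05. The share called was 41.4%, against 20.2% of all genes. The Src family kinase *Fgr* had 70 to 127 normalized counts in CTRL and 243 to 285 in Act, and rose by 1.41 ± 0.28 on the log2 scale (limma adjusted p = 0.00331). *Src* itself had 76 to 100 in CTRL and 187 to 259 in Act, a rise of 1.37 ± 0.20 (limma adjusted p = 0.000461). Both kinases overlapped with CTRL in Act + FST, with 62 to 126 for *Fgr* and 58 to 95 for *Src*. *Prkca*, a protein kinase C, fell by 0.97 ± 0.13, and *Cblb*, a ubiquitin ligase that limits ITAM signalling, fell by 0.78 ± 0.08, from 1021 to 1067 normalized counts in CTRL to 535 to 669 in Act. *Syk*, the kinase that docks on the common gamma chain, had 2698 to 2920 in CTRL and 2696 to 2844 in Act, a log2 fold change of −0.01 ± 0.06 (limma adjusted p = 0.957). With the replicate block 10 genes of this list rose and 4 fell, or 48.3% called against 31.5% of all genes. Without Act replicate 1, 7 genes of the list were called instead of 12. The shares of all genes called in fits that left out 1 library are not given, here or for the lists below. Such counts therefore cannot be set against all genes.

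Among the inhibitory phosphatases and adaptors, 4 of 12 genes rose, 1 fell and 7 did not pass, with a median of 0.08. The share called was 41.7%, against 20.2% of all genes. *Inpp5d*, which encodes the phosphatase SHIP1 recruited by *Fcgr2b*, had 1911 to 2066 normalized counts in CTRL and 2331 to 2493 in Act, a rise of 0.27 ± 0.04 (limma adjusted p = 0.000759). The docking proteins *Dok2* and *Dok3*, which recruit negative regulators to the membrane, went in opposite directions, with a fall of *Dok2* by 0.72 ± 0.06 and a rise of *Dok3* by 0.63 ± 0.08. *Pag1*, an adaptor that brings the kinase Csk to the membrane, rose by 0.52 ± 0.06, and the phosphatase gene *Ubash3b* rose by 0.36 ± 0.10.

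Of the phagocytic actin machinery, 5 of 36 genes tested rose, 1 fell and 30 did not pass, which is 16.7% called against 20.2% of all genes, with a median of 0.02. The largest rises were those of *Vasp*, which promotes actin filament growth (0.49 ± 0.06), the phospholipase *Pld1* (0.34 ± 0.07), *Coro1a* (0.30 ± 0.05) and the cofilin kinase *Limk1* (0.18 ± 0.05). With the replicate block 7 genes of this list rose and 4 fell, or 30.6% against 31.5% of all genes, and without CTRL replicate 3, 3 were called in all. Of the 5 NADPH oxidase genes, which make the oxidative burst, *Ncf4* and *Ncf1* rose, each by 0.20 ± 0.05, and 3 did not pass, with a median of 0.16. The share called was 40.0%, against 20.2% of all genes. With the replicate block 3 of these 5 genes were called (60.0%, against 31.5% of all genes), and without Act replicate 3, 1.

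Of a list of other signalling adaptors, C-type lectins and paired receptors, 3 of 7 genes tested rose, 1 fell and 3 did not pass, with a median of −0.07. Not all of these signal through an ITAM, since the list also holds the adaptor *Hcst* and the inhibitory lectin *Clec4a2*, which did not pass. The share called was 57.1%, against 20.2% of all genes. *Clec4e*, a receptor for mycobacterial glycolipid that uses the common gamma chain, had 350 to 449 normalized counts in CTRL and 688 to 871 in Act and rose by 0.94 ± 0.10. The related C-type lectins *Clec4n* and *Clec4d* rose by 0.45 ± 0.07 and 0.19 ± 0.06, and *Pira2*, an activating paired immunoglobulin-like receptor, fell by 0.59 ± 0.09. *Tyrobp*, the DAP12 adaptor that parallels *Fcer1g*, had a log2 fold change of −0.07 ± 0.06 and did not pass (limma adjusted p = 0.465).

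Among other Fc receptors and Fc receptor-like genes, 2 of 5 genes tested rose, 1 fell and 2 did not pass, with a median of −0.08. The share called was 60.0%, against 20.2% of all genes. *Fcrls* rose by 0.54 ± 0.06, from 1046 to 1207 normalized counts in CTRL to 1578 to 1674 in Act, *Fcrl1* rose by 0.31 ± 0.09, and *Fcrla* fell by 0.86 ± 0.15. *B2m*, the partner of *Fcgrt*, had 615 to 699 in CTRL and 627 to 665 in Act, a log2 fold change of −0.01 ± 0.06 (limma adjusted p = 0.946). In the list of 8 genes that holds *B2m* and the MHC class I genes, 2 rose, 1 fell and 5 did not pass, with a median of 0.02. The share called was 37.5%, against 20.2% of all genes. *H2-Q7* rose by 1.40 ± 0.41 and *H2-Q4* by 0.25 ± 0.08, which are uncertain because near-identical class I genes share reads, and *Cd1d1* fell by 0.50 ± 0.14. Without Act replicate 2 no gene of this list was called, and 1 was called without CTRL replicate 3, Act replicate 1 or Act replicate 3.

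The interferon gamma axis, which is known to raise *Fcgr1*, had 2 of 8 genes that rose and 6 that did not pass, with a median of 0.07. The share called was 25.0%, near the 20.2% of all genes. The receptor chain *Ifngr2* rose by 0.19 ± 0.04 on the log2 scale (limma adjusted p = 0.00621). Without CTRL replicate 3, Act replicate 1 or Act replicate 3, 1 gene of the list was called, and 3 were called with the replicate block (37.5%, against 31.5% of all genes).

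**Figure D5:**
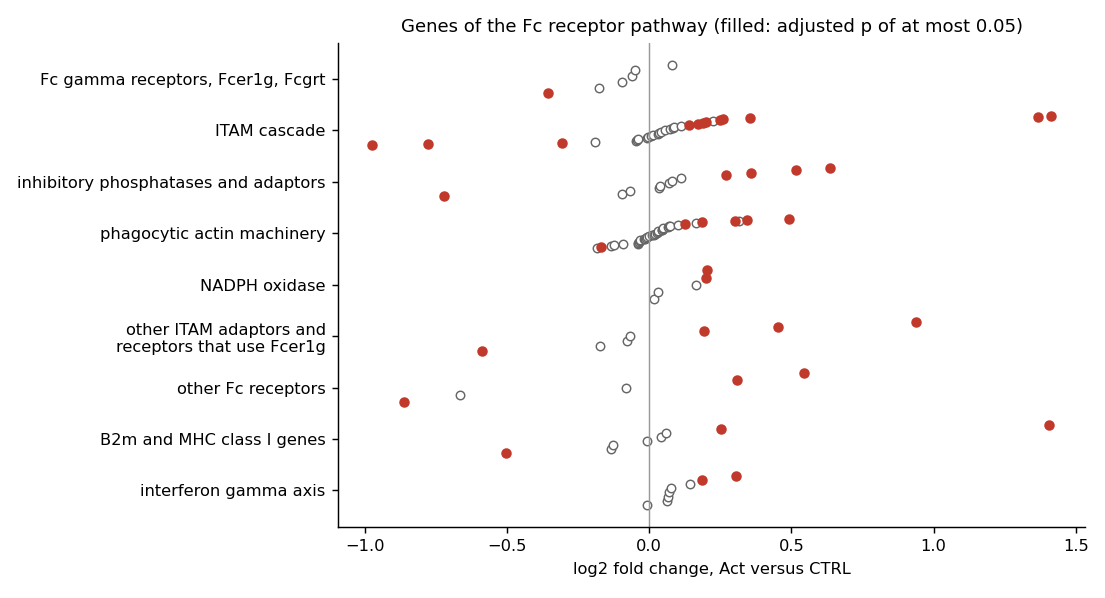
Log2 fold change of Act versus CTRL (x axis) for each gene tested in the Fc receptor genes and the 8 pathway lists (y axis), 1 point per gene in order of its value, filled where the adjusted p was at most 0.05. The largest changes are those of *Fgr* (1.41), *H2-Q7* (1.40) and *Src* (1.37), and *Fcgr4* at −0.35 is the filled point among the Fc receptor genes.

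Some genes listed as markers of other cells were called between Act and CTRL beside the fall of *Fcgr4*. Of all genes, 20.2% were called in this comparison, and 31.5% with the replicate block. The summed level of 7 neutrophil markers was 842 to 1143 in CTRL and 680 to 1085 in Act. Of these, the granule genes of myeloid precursors *Mpo* and *Elane* fell by 2.01 and 1.64 on the log2 scale, to 15 to 42 and 7 to 13 normalized counts, and 5 did not pass. The 6 monocyte markers summed to 1433 to 2280 in CTRL and 2653 to 2958 in Act, where *Ccr2* rose by 1.04 and 5 did not pass, while the replicate block called 2 higher and 1 lower. *Kit*, a marker of progenitors and mast cells, fell by 1.23, from 34 to 59 in CTRL to 11 to 32 in Act, and the 5 mast cell and basophil markers listed summed to 38 to 69 in CTRL and 16 to 43 in Act. The 5 B and T cell markers listed summed to 638 to 726 and 401 to 521, mostly from *Cd4*, which fell by 0.57. Dendritic cell markers (6 genes, 77 to 186 in CTRL and 169 to 235 in Act), NK cell markers (2 genes, 3 to 18 and 7 to 10) and stromal markers (5 genes, 3 to 55 and 12 to 200) had no gene called without the replicate block. With it, 3 of the 5 dendritic cell markers tested and 1 of the 2 stromal markers tested were called higher. The part of these cells in the *Fcgr4* result was not tested, and in bulk RNA fewer cells with a transcript and less transcript per cell cannot be told apart.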

How the data were processed

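RNA from 12 BMDM libraries was sequenced as single-end reads. According to the submitters' processing notes and the methods, the authors trimmed reads with Trimmomatic 0.39, aligned them to mm10 with STAR 2.7.9a and counted them per gene with featureCounts 2.0.2, where reads that fell on more than 1 gene or place were dropped. The deposited values are normalized counts, treated here as a score, since each library was multiplied by its own factor and the result rounded, so that whole reads could not be recovered. The scaling formula, strand setting and removal of duplicate reads are not given in the sources used here.

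Values were tested with limma-trend (limma 3.58.1, R 4.3.3) on log2(normalized count + 1), with 1 mean for each of the 4 groups and a minimum mean of 5 per gene. P-values are two-sided and adjusted by Benjamini-Hochberg over all 14318 genes, and a gene was called at an adjusted p of at most 0.05. The test was checked on simulated data. Members of a group are the libraries that the labels place there. The labels give each group replicates 1, 2 and 3. Deviations from the group means correlated between all 18 pairs of libraries with the same number (0.157 to 0.481, mean 0.312). The fit with the number as a block is therefore given where it changes a call. Over 36 pairs with different numbers the mean was −0.155, a value tied to the former by the removal of group means and no separate comparison. Exon lengths and coordinates come from GENCODE M21 (GRCm38) and promoters from RefSeq (GRCm38.p6).

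The 6 genes, the pathway and marker lists and the tests were chosen with earlier results of these data known. Named in the text are the 6 genes, up to 4 called genes with the largest changes per pathway list, *Syk*, *Inpp5d*, *Tyrobp* and *B2m*, the 3 genes most like each of the 6, and markers that are near 0 or moved, apart from a pathway gene that is not reported here. *Psap* and *Gm38204* were named after their values or overlap were seen. Alternatives were pseudocounts of 0.5 and 5, no filter and a filter of 50, quantile normalization, median-of-ratios rescaling, no trend, the libraries compared alone, the replicate block, a 2-fold threshold, leaving out each library, and, added after the data were seen, an arithmetic correction for reads with a common start position and transcript lengths.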

Additional observations from a re-analysis of the deposited data

How the results depend on the processing

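*Fcgr4* passed the test in Act versus CTRL (log2 fold change −0.47 to −0.31, limma adjusted p from 2.03e-05 to 0.00413) and in Act versus Act + FST (−0.41 to −0.27, limma adjusted p from 5.84e-05 to 0.00862) in all 16 alternatives that kept a threshold on the adjusted p alone. With a 2-fold threshold the number of the 6 genes called was 0 in both comparisons, and that of pathway genes was 3 instead of 37. Quantile normalization called 2 of the 6 genes in Act versus CTRL, adding *Fcgrt*, and 1, *Fcgr4*, in the difference between the activin A effects without and with FST. The fit to the libraries compared alone also called 2 in Act versus CTRL. The shares of all genes called under these 2 settings are not given here. The replicate block called 2 in Act versus CTRL, 3 in Act versus Act + FST and 1 in the difference between the activin A effects, and changed no other call of the 6 genes. Small log2 fold changes that did not pass turned sign. *Fcgr1* in Act versus Act + FST went from 0.04 to −0.0081 under quantile normalization, and from −0.0081 to 0.0756 when single libraries were left out. *Fcgr3* in that comparison ranged from −0.11 to 2.3e-05, and the highest value of the 6 genes in the difference between the activin A effects ranged from −0.00496, without CTRL replicate 3, to 0.114. The cause was not tested. The log2 ratio of activating to inhibitory receptors differed between Act and CTRL by −0.0491 to 0.0461 when single libraries were left out, within the SD of 0.08. Depth is not known from these scaled values, and 3 libraries per group limit the exact permutation test to p = 0.1.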

Other observations

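The genes whose values followed each Fc receptor gene most closely were looked up among 10633 genes with a mean of at least 50, by Pearson's r of log2(normalized count + 1) over the 12 libraries, which share scaling and treatment groups. The values are a description. For *Fcgr4* these were the chemokine gene *Ccl6* (0.985), *Cln8* (0.977) and *Taf11* (0.973). For *Fcgrt* they were the C-type lectin *Clec4a3* (0.952), *Ighm* (0.949) and *Ap1b1* (0.942), and for *Fcgr1* they were *Srgn* (0.914), *Cp* (0.902) and *Slco3a1* (0.882). *Fcgr3* was closest to the translation elongation factor *Eef2* (0.975) and the lysosomal genes *Psap* (0.974) and *Ctsd* (0.967), of which *Psap* is the densest gene per exonic base in the table. *Fcgr2b* was closest to *Dbnl* (0.926), *Nudt9* (0.924) and *Phax* (0.919), and *Fcer1g* to *Retreg2* (0.952), *Btf3* (0.947) and *Zfand6* (0.946).

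Among the 6 genes themselves, r was highest for *Fcgr2b* and *Fcer1g* (0.904) and for *Fcgr4* and *Fcgrt* (0.835). The values of *Fcgr1* were nearly unrelated to those of the other 5 genes, with r between −0.11 and 0.18. With the group means removed, r ran from 0.067 (*Fcgr1* and *Fcgr2b*) to 0.898 (*Fcgr2b* and *Fcer1g*). It was 0.847 for *Fcgr2b* and *Fcgrt*, 0.784 for *Fcgr3* and *Fcer1g*, and 0.674 for *Fcgr1* and *Fcgr4*. Pairs thus differed widely in how far they varied together between replicates of a group. All 6 genes were above their group means in replicate 2 of Act + FST and of FST, where other dense genes were also higher. The part of that shift in these values was not tested.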
